A study of Rattus norvegicus with 6 samples.

Results

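The cyclic AMP (cAMP) machinery was followed across VSMCs and mcPCs of the rat cortex through 50 genes of the 14607 in the table. They were chosen by symbol, with earlier results of these data known. They encode 8 adenylyl cyclases, 6 subunits of protein kinase A (PKA), 14 A-kinase anchoring proteins (AKAPs) and 2 exchange proteins activated by cAMP (EPACs). The others are 19 genes named as phosphodiesterases (PDEs) and the popeye protein gene Popdc2. Pde5a fits the symbol pattern and was left out. A further 13 protein-coding rat genes with fitting symbols, among them Adcy8, Adcy10, Pde1c, Pde11a, Bves and Popdc3, have no row and were not analysed here.

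Both cell types came from male Sprague-Dawley rats of 4 to 5 weeks with no treatment or transgene, and messenger RNA was sequenced from 3 VSMC and 3 mcPC samples of 3 isolations that each pooled the cortices of 10 rats. VSMCs were dissociated from arterioles held back by a filter and sorted positively with a lectin after endothelial and CD11b-positive cells had been removed. mcPCs were what was left of the filtrate once endothelial, CD11b-positive, GLAST-positive and O4-positive cells had been taken out, so they were defined by negative sorting. Only the arterioles received a further digestion with Liberase TM and trypsin, and that step cannot be told apart from the cell type.

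Adenylyl cyclases make cAMP from ATP, mostly when a receptor has activated the stimulatory G protein, and PDEs break it down. Between these steps cAMP releases the catalytic subunits of PKA from the regulatory subunits, opens the EPACs, which activate the small GTPase Rap1, and binds popeye proteins at membranes. AKAPs hold PKA and often a PDE beside the same substrate. In arterial smooth muscle a rise of cAMP is known to relax the cell.

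The deposited levels are the authors' means of each cell type, so no SD between isolations and no test was computed here for any difference below. The authors' own comparison, deposited with standard errors and p-values, was not used. Levels are mean TPM. Differences are the log2 ratio of the mean normalized count in mcPCs over that in VSMCs, so values below 0 are higher in VSMCs, and each is given with a 95% counting interval. That interval was computed exactly from the reads of both cell types and covers counting error only, not the spread between isolations. Summed over genes, the mean counts came to 62.0 M reads for each VSMC sample and 48.0 M for each mcPC sample. Members had from 8.33 to 62039 reads per VSMC sample (median 4575) and from 16.0 to 17894 per mcPC sample (median 928.0). In a bulk sample, fewer cells of a type and less RNA per cell cannot be told apart.

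The sorted cells carried the markers of their labels. All 6 smooth muscle markers were at least 2-fold higher in VSMCs, with a summed 55639 TPM against 258 TPM in mcPCs, and all 4 pericyte markers were at least 2-fold higher in mcPCs, with 105 and 855 TPM. The mcPC samples also held other cells' transcripts. Erythrocyte and hemoglobin genes took 66.5% of the mcPC TPM and 0.865% of the VSMC TPM, and the median gene stood at 3.59 TPM in mcPCs and 12.7 TPM in VSMCs. TPM is therefore read here within a cell type, as an order or a share, and the normalized counts are used between cell types. Where TPM of both cell types is printed side by side, it gives the levels and not the size of a difference. Such pairs make most genes look lower in mcPCs.

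Of the 50 members, 34, or 68%, had a log2 ratio below 0, against 49.3% of all genes. At least 2-fold higher in VSMCs were 20 of the 50 members, or 40%, against 13.9% of all genes in the table. At least 2-fold higher in mcPCs were 12 members, or 24%, against 22.0% of all genes, which is close to the background. The roles differed in these counts. Towards VSMCs and mcPCs they were 6 and 1 for the 14 AKAPs and 3 and 0 for the 6 PKA subunits. For the EPACs with Popdc2 they were 2 and 0, for the 8 cyclases 3 and 3, and for the 19 PDE-named genes 6 and 8. The mcPC counts include Adcy1 and Adcy2 among the cyclases and Pde6a and Pde9a among the PDEs, all under 0.8 TPM in both cell types. The VSMC count of the PDE-named genes includes Pde12 and Pde4dip, which are not known to hydrolyse cyclic nucleotides. The split of 20 and 12 became 38 and 3 on mean TPM as it stands and 27 and 9 with counts brought to one total, scales on which the median of all genes lies at -1.72 and -0.55. With the 4 members under 0.8 TPM in both cell types left out it was 20 and 8, and the shares of all genes under that filter were not computed. The median log2 ratio was -0.53 over the members and 0.01 over all genes. Past 4-fold lay 14 members higher in VSMCs and 7 higher in mcPCs, where 5.72% and 12.4% of all genes did. All 20 members counted as higher in VSMCs had their whole counting interval past 2-fold, as did 10 of the 12 higher in mcPCs, the exceptions being Pde1b and Pde6a. Of all 14607 genes, 1739 had it past 2-fold towards VSMCs and 2738 towards mcPCs. The direction of the 20 held under each of 6 other scalings, which could hardly have turned it. All 20 lay at -1.48 or lower, and these scalings put the median of all genes between -1.72 and 0.18. Of the 12, the ratio of mean TPM as it stands, on which 86.3% of all genes were lower in mcPCs, kept 8 above 0.

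**Figure D1:**
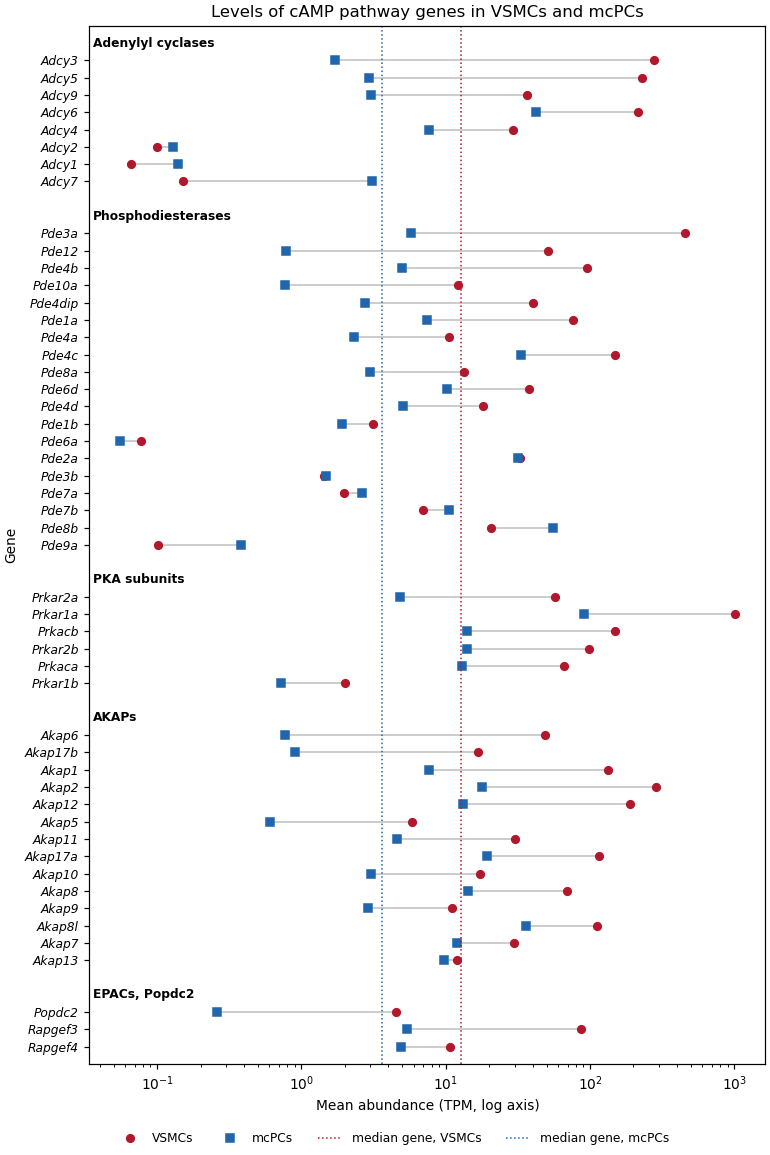
Mean TPM (log axis) of each of the 50 genes in VSMCs (circles) and mcPCs (squares), grouped by role, with dotted lines at the median gene of each cell type. Prkar1a is the highest in both cell types, Pde8b and Pde7b are among the few genes with more TPM in mcPCs, and Adcy1, Adcy2, Pde6a and Pde9a stay under 0.8 TPM in both.

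The cyclases differed in which isoforms made up the total. In VSMCs 3 genes shared it, with 279 TPM for Adcy3, 229 TPM for Adcy5 and 216 TPM for Adcy6, or 35.3%, 29.0% and 27.4% of the summed cyclase TPM. In mcPCs Adcy6 alone held 69.2% with 42.2 TPM. It was followed by Adcy4 with 12.7% and 7.72 TPM, while Adcy5 held 4.83% and Adcy3 2.80%. Adcy6 thus had 24.7 times the TPM of Adcy3 in mcPCs, whereas in VSMCs Adcy3 had 1.29 times that of Adcy6. These shares are taken within a cell type and do not depend on the scaling between them.

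Adcy3, a cyclase best known from olfactory neurons and cilia, had a mean normalized count of 44284 in VSMCs and 935 in mcPCs. Its log2 ratio of -5.57 (95% counting interval -5.63 to -5.50) was the lowest of the members. Adcy5, which calcium and inhibitory G proteins restrain, had mean normalized counts of 30784 and 1394 and a log2 ratio of -4.47 (95% counting interval -4.52 to -4.41). Its close relative Adcy6 shares that control by calcium, and with 35470 and 24427 normalized counts it stayed within 2-fold, at -0.54 (95% counting interval -0.55 to -0.52). The pair therefore differed unequally between the cell types.

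Adcy9 had a log2 ratio of -1.77, with 36.5 TPM in VSMCs against 3.05 TPM in mcPCs. Adcy4 lay within 2-fold at -0.14, and it turned above 0 on counts scaled without the erythrocyte and hemoglobin genes. Adcy7, a cyclase typical of blood cells, went the other way by the most of all members. Its mean normalized count was 17.2 in VSMCs, from 24.3 reads per sample, and 1191 in mcPCs, from 894 reads per sample, a log2 ratio of 6.11 (95% counting interval 5.78 to 6.47). Even so it reached no more than 3.08 TPM in mcPCs. Its 0.150 TPM in VSMCs lies under the 0.8 TPM that the study required there. The study set that filter because endothelial transcripts were more abundant in mcPCs. The neuronal cyclases Adcy1 and Adcy2 were higher in mcPCs by ratio, yet stood at 0.140 and 0.128 TPM there and at 0.0657 and 0.0996 TPM in VSMCs.

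Markers of other cells moved in the same direction as Adcy7. Both leukocyte markers with a row, Ptprc and S100a9, were at least 2-fold higher in mcPCs, where 22.0% of all genes were. Their sum was 0.807 TPM in VSMCs against 23.5 TPM in mcPCs. For microglia and macrophages it was 4 of 4 markers, with 0.517 and 9.05 TPM. For endothelial cells it was 6 of 7, with 10.03 and 25.64 TPM, for astrocytes 4 of 4, with 0.582 and 15.7 TPM, and for neurons 4 of 4, with 0.823 and 19.9 TPM. For oligodendrocytes it was 3 of 4 by normalized counts, with a summed 6.62 and 5.196 TPM. The listed markers Pecam1, Itgam, Aif1, Cd3e, Cd79a, S100a8, Aldh1l1 and Rbfox3 have no row and were not analysed here. The part of these cells in the members that were higher in mcPCs was not tested.

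**Figure D2:**
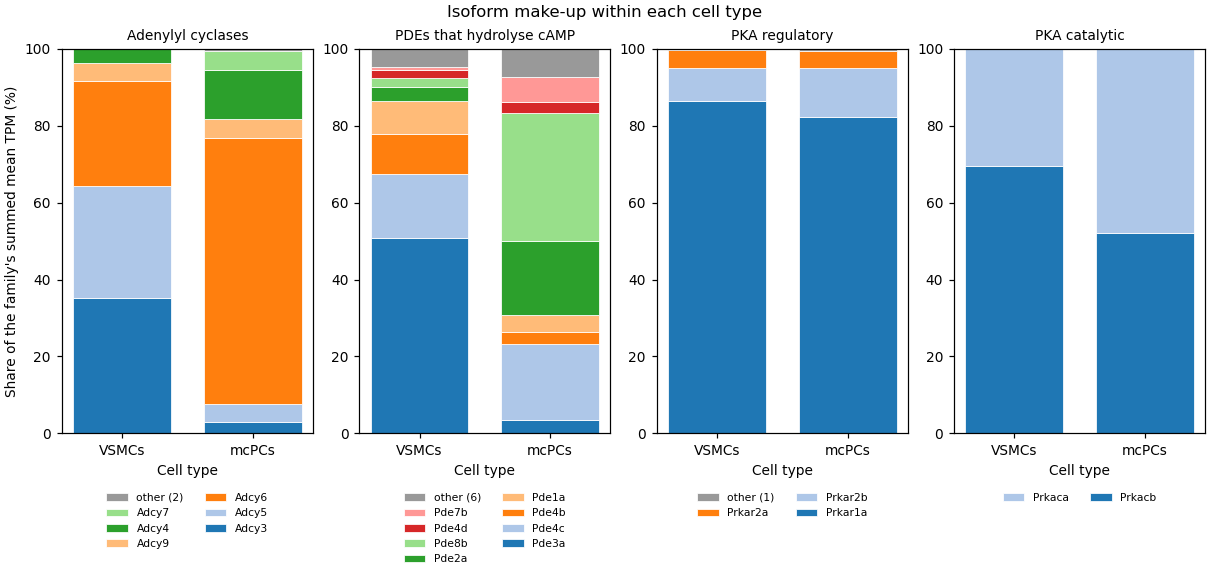
Share of each gene in the summed mean TPM (%) of the adenylyl cyclases, the PDEs that hydrolyse cAMP, and the regulatory and catalytic PKA subunits, as stacked bars for VSMCs and mcPCs. Adcy6 fills 69.2% of the cyclase bar in mcPCs against 27.4% in VSMCs and Pde3a 50.8% of the PDE bar in VSMCs against 3.45% in mcPCs, while Prkar1a leads the regulatory subunits in both.

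The leading enzyme that hydrolyses cAMP also differed between the cell types. Of the 14 PDE genes whose products act on cAMP, Pde3a led in VSMCs with 455 TPM, or 50.8% of their sum, and Pde8b led in mcPCs with 55.4 TPM, or 33.3%. Pde3a encodes the cAMP-hydrolysing enzyme that cGMP inhibits, well known from heart and vascular muscle, and Pde8b a high-affinity cAMP-specific enzyme. In VSMCs Pde3a had 22.2 times the TPM of Pde8b, and in mcPCs Pde8b had 9.67 times that of Pde3a.

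The mean normalized count of Pde3a was 42346 in VSMCs and 1877 in mcPCs, a log2 ratio of -4.50 (95% counting interval -4.54 to -4.45). For Pde8b it was 1383 and 13226, a log2 ratio of 3.26 (95% counting interval 3.22 to 3.30). Its relative Pde8a did not move with it, at -0.36 with mean normalized counts of 911 and 711. Likewise Pde3b, known for its role in fat and liver cells, was opposite to Pde3a, with a log2 ratio of 1.82 at the low levels of 1.42 TPM in VSMCs against 1.49 TPM in mcPCs.

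Pde2a, which cGMP stimulates, had a mean normalized count of 3715 in VSMCs and 12759 in mcPCs and a log2 ratio of 1.78 (95% counting interval 1.75 to 1.81). By TPM the values were 32.8 and 31.8, a log2 ratio of -0.044 that does not allow for the erythrocyte share. Pde2a was above 71.7% of all genes in VSMCs and above 92.3% in mcPCs, and made up 19.2% of the cAMP-hydrolysing PDE TPM there against 3.66% in VSMCs. Both cAMP-specific PDE7 genes were higher in mcPCs. Pde7b had a log2 ratio of 2.44 (95% counting interval 2.35 to 2.53) with 10.6 TPM in mcPCs, and Pde7a one of 2.28 (95% counting interval 2.15 to 2.41) with 2.64 TPM.

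The PDE4 family, cAMP-specific enzymes whose inhibitors are used against inflammation, did not move as a block. Pde4c was the most abundant of the 4 in both cell types, with 149 TPM in VSMCs against 33.0 TPM in mcPCs, and held 54.7% and 72.7% of the family's TPM. Pde4b was the only one past 2-fold, with 94.6 and 4.99 TPM and a log2 ratio of -2.46 (95% counting interval -2.52 to -2.40). Pde4a, Pde4c and Pde4d had log2 ratios of -0.40, -0.38 and -0.07, and the counting interval of Pde4d, -0.15 to 0.01, included 0.

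Among the PDEs with dual specificity, the calcium and calmodulin-dependent enzyme gene Pde1a was higher in VSMCs, with 76.7 and 7.41 TPM and a log2 ratio of -1.52. Pde1b lay at 1.10 in the other direction, with 3.11 TPM in VSMCs against 1.92 TPM in mcPCs and a counting interval of 0.94 to 1.26 that reaches below 2-fold. Pde10a, best known from the striatum, had 12.1 TPM in VSMCs against 0.766 TPM in mcPCs, a log2 ratio of -2.20. The cGMP-specific genes Pde9a and Pde6a stood at no more than 0.381 TPM in either cell type. Summed, the cyclases had 0.883 times the TPM of the cAMP-hydrolysing PDEs in VSMCs and 0.367 times in mcPCs. These are ratios of transcripts and say nothing of enzyme activity.

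Symbols alone brought in 3 genes whose products are not known to hydrolyse cyclic nucleotides. Pde12, a mitochondrial enzyme that trims RNA tails, had 50.8 TPM in VSMCs against 0.786 TPM in mcPCs and a log2 ratio of -4.24 (95% counting interval -4.39 to -4.09). Pde4dip, which encodes the centrosomal and Golgi protein myomegalin, had one of -2.03. Pde6d, a carrier of prenylated proteins, lay at -0.09.

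**Figure D3:**
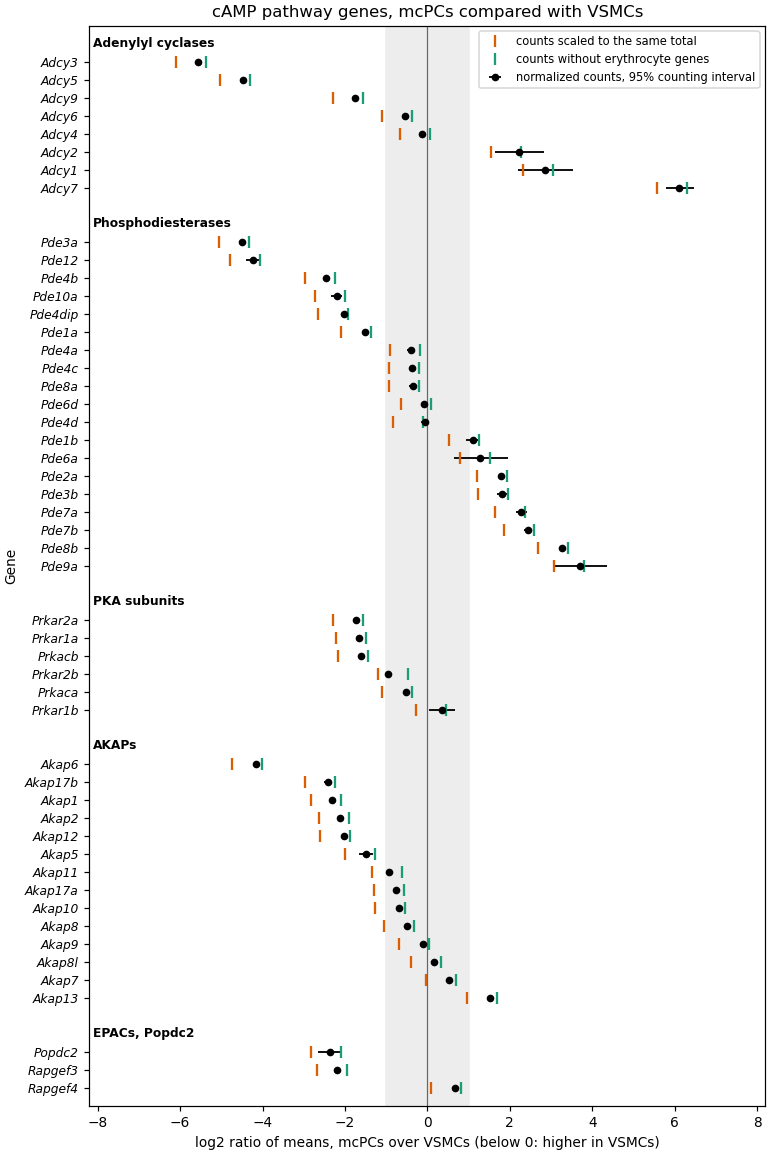
log2 ratio of the mean normalized counts, mcPCs over VSMCs, for the 50 genes (black points with 95% counting intervals), with ticks for counts brought to one total and for counts without erythrocyte and hemoglobin genes. The grey band marks less than 2-fold. Adcy3 at -5.57 and Adcy7 at 6.11 are the ends of the range, and the PKA subunits lie between -1.73 and 0.35.

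The PKA subunits spanned a narrower range of log2 ratios, -1.73 to 0.35, than the members of any other role. Prkar1a, the regulatory subunit RIα, was the most abundant member in both cell types with 1005 and 90.8 TPM, above 99.0% and 97.4% of all genes. It held 86.4% of the regulatory subunit TPM in VSMCs and 82.3% in mcPCs. Its mean normalized counts of 35695 and 11352 gave a log2 ratio of -1.65 (95% counting interval -1.67 to -1.63). Prkar2a followed at -1.73 and Prkar2b at -0.96, just inside 2-fold, while Prkar1b had 2.01 and 0.719 TPM and lay at 0.35, or below 0 with counts brought to one total. RefSeq lists pseudogenes of Prkar1a and Akap8 in the rat, and reads shared with them would make the values of these genes uncertain.

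Of the catalytic subunits, Prkacb (Cβ) had 150 TPM in VSMCs against 14.1 TPM in mcPCs and a log2 ratio of -1.62, whereas Prkaca (Cα) had 65.49 and 12.96 TPM and lay within 2-fold at -0.52. Prkacb therefore had 2.29 times the TPM of Prkaca in VSMCs and 1.09 times in mcPCs. Regulatory transcripts outnumbered catalytic ones by 5.40 to 1 in VSMCs and by 4.08 to 1 in mcPCs.

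Of the 14 AKAPs, 6 were at least 2-fold higher in VSMCs, 1 was at least 2-fold higher in mcPCs and 7 stayed within 2-fold, against a background of 13.9% of all genes for VSMCs and 22.0% for mcPCs. Akap6, which anchors PKA at the nuclear envelope of muscle cells, differed most, with mean normalized counts of 12134 in VSMCs and 678 in mcPCs and a log2 ratio of -4.16 (95% counting interval -4.24 to -4.09). Akap17b had a log2 ratio of -2.41, Akap1 (the AKAP of the outer mitochondrial membrane) -2.32, Akap2 -2.13, Akap12 (gravin, a scaffold at the cell membrane) -2.03 and Akap5 -1.48. Akap2 with 287 TPM and Akap12 with 190 TPM were the most abundant AKAPs of VSMCs and together with Akap1 held most of the family's TPM.

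In mcPCs the order was another one. Akap8l, which encodes a nuclear protein, led with 35.8 TPM, or 25.1% of the AKAP sum against 10.4% in VSMCs, followed by Akap17a with 19.4 TPM. Both lay within 2-fold, with log2 ratios of 0.15 and -0.77. That of Akap8l fell below 0 when counts are brought to one total and on TPM as it stands. Akap13, which couples PKA anchoring to activation of the small GTPase RhoA, was the only AKAP at least 2-fold higher in mcPCs. Its mean normalized counts were 4173 in VSMCs and 11934 in mcPCs, with a log2 ratio of 1.52 (95% counting interval 1.49 to 1.54) that came out at -0.29 on TPM as it stands. The 7 within 2-fold were Akap7, Akap8, Akap8l, Akap9, Akap10, Akap11 and Akap17a.

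The EPACs parted from each other. Rapgef3 (EPAC1) had 86.1 TPM in VSMCs against 5.43 TPM in mcPCs and a log2 ratio of -2.19 (95% counting interval -2.24 to -2.14), while Rapgef4 (EPAC2) had 10.7 and 4.88 TPM and lay within 2-fold at 0.67 (95% counting interval 0.60 to 0.74). On TPM as it stands Rapgef4 fell below 0. Rapgef3 had 8.05 times the TPM of Rapgef4 in VSMCs and 1.11 times in mcPCs. Popdc2, whose membrane protein binds cAMP in heart and skeletal muscle, had 4.52 TPM in VSMCs against 0.262 TPM in mcPCs, from 40.0 reads per mcPC sample, and a log2 ratio of -2.36.

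Mean effective lengths, the authors' measure of which transcripts of a gene were counted, differed by at least 5% between the cell types for 5 members, or 10%, against 8.06% of all genes. The largest change was that of Prkar2b, from 1660 bases in VSMCs to 2186 bases in mcPCs, or 31.7% longer. Akap2 was 10.4% longer in mcPCs, Akap11 8.32% and Akap1 5.13%. Pde4d, a gene with many promoters, was 14.3% shorter in mcPCs, with 2063 bases in VSMCs and 1769 bases in mcPCs. The length was the same to within 0.1% for 33 members.

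Promoters were looked at for cAMP response elements, the sites of CREB, and for CArG boxes, the sites of SRF in smooth muscle genes. RefSeq (GRCr8) promoter windows of 250 bases before the start were found for 40 members, 53 windows in all, and none for Adcy3, Adcy6, Pde1b, Pde3b, Pde4c, Pde6d, Pde7a, Pde7b, Pde9a and Prkar2a. The full element TGACGTCA was in the window of 1 member, Akap17a, against 1.59% of 33465 rat windows. The half-site TGACG, which the full element also contains, was in 11 of the 53 windows on either strand, against 18.2% of all. No window held a CArG box, against 1.497% of all. GC boxes (GGGCGG) were in 28 windows, against 30.5% of all, and a TATAAA was in 2, against 12.9%. The median GC content was 59.6% in the members' windows and 51.2% in all. Shown are the window with the full element, that of the leading cyclase of VSMCs with a window, and those of the leading PDE of each cell type. Capitals mark the full element in Akap17a and the GC boxes, read on either strand, in Adcy5, and Pde3a and Pde8b have neither.
Akap17a, GRCr8 chr12:21428248-21428497, minus strand: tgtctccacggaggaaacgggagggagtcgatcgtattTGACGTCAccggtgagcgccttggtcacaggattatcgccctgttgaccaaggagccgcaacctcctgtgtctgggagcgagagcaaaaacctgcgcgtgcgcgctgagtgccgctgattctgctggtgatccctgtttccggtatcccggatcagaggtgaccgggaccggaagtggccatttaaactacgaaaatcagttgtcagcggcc
Adcy5, GRCr8 chr11:79123344-79123593, minus strand: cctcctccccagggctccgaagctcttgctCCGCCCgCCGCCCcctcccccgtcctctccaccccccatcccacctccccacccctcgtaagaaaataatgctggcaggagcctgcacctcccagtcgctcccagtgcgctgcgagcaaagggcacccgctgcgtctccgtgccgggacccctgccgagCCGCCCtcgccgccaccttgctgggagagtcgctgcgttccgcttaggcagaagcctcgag
Pde3a, GRCr8 chr4:175904026-175904275, plus strand: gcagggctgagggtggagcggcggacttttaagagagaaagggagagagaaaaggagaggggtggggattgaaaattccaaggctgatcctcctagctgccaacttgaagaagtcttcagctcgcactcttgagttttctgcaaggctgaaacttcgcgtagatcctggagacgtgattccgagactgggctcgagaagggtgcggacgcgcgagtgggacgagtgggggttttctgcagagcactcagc
Pde8b, GRCr8 chr2:28116052-28116301, minus strand: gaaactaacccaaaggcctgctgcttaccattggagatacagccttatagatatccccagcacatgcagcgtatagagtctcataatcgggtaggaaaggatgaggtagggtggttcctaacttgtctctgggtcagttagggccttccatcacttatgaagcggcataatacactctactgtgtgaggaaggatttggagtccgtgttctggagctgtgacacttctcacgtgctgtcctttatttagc

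The windows of Pde3a and Pde8b thus held none of the searched elements for CREB or SRF, as is the case for most rat windows. The element of Akap17a began 212 bases before the start of a gene that stayed within 2-fold. No binding was measured, so a match or its absence describes the letters of a window only, and sites outside it were not searched.

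Of 36 other genes of the pathway, 18 were at least 2-fold higher in VSMCs, against 13.9% of all genes, and 4 at least 2-fold higher in mcPCs, against 22.0% of all genes. Of these 4, only Gnal reached 0.8 TPM. The median log2 ratio of the 36 was -0.98, and that of all genes 0.01. These 36 were listed with earlier results of these data known, so their counts are no test of the pathway. Of the 18, 7 are listed CREB targets and 5 are PKA substrates or phosphatase regulators. The stimulatory G protein gene Gnas, summed over its 2 rows, did not differ much, with 861 and 258 TPM and a log2 ratio of 0.10 that turned below 0 on TPM as it stands and with counts brought to one total. The inhibitory Gnai1 lay at -1.69 and Gnai2 and Gnai3 within 2-fold. Gnal, the stimulatory G protein of olfactory and striatal neurons, was higher in mcPCs at 4.99 (95% counting interval 4.62 to 5.38), with 0.583 and 5.40 TPM. Its level in VSMCs is under the study's filter of 0.8 TPM there. Of the PKA inhibitor genes, Pkia lay at -1.63, and Pkig, the most abundant with 747 and 119 TPM, within 2-fold at -0.88. Pkib, Ppp1r1b and the cAMP exporter gene Abcc4 were higher in mcPCs by ratio and at no more than 0.553 TPM in either cell type.

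Of 8 genes for PKA substrates and phosphatase regulators, 5 passed 2-fold towards VSMCs, against 13.9% of all genes. Only 1, Ppp1r1b, passed it towards mcPCs, against 22.0% of all genes. Pln, which encodes phospholamban, the brake of the calcium pump of the sarcoplasmic reticulum, had 387 TPM in VSMCs against 0.255 TPM in mcPCs and a log2 ratio of -8.85 (95% counting interval -9.13 to -8.59). Mylk, the kinase of the myosin light chain, lay at -3.57, Ppp1r12a, the targeting subunit of myosin phosphatase, at -3.37, Hspb6 (HSP20) at -2.89 and the phosphatase inhibitor gene Ppp1r1a at -2.05. Vasp and Lipe stayed within 2-fold. Rap1a, a target of the EPACs, lay at -1.998 and Rap1b at -0.14.

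Among the CREB factors and partners, Crem (the cAMP-responsive modulator) with 797 and 38.7 TPM had a log2 ratio of -2.61, the coactivator gene Crtc3 one of -2.53 and Atf1 one of -1.08, while Creb1, Crtc1, Crtc2, Crebbp and Ep300 stayed within 2-fold. Of 9 genes listed here as CREB targets, 7 were at least 2-fold higher in VSMCs, against 13.9% of all genes. Their log2 ratios were -4.86 for Fos, -3.98 for Nr4a2, -3.95 for Dusp1, -3.16 for Nr4a1, -2.60 for Nr4a3, -2.30 for Sik1 and -1.20 for Per1. The others on the list, Crebrf and Ppargc1a, stayed within 2-fold at -0.51 and -0.15, Ppargc1a at no more than 0.321 TPM. Crebrf is named for regulating a CREB-family factor, and its listing as a target was not checked. Fos reached 4441 TPM in VSMCs against 45.2 TPM in mcPCs. Several of the 7 are also early response genes that tissue dissociation is known to induce, and the arterioles alone had the further digestion. For the listed CREB targets, Crem and Pde4b that step and the cell type cannot be told apart.

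**Figure D4:**
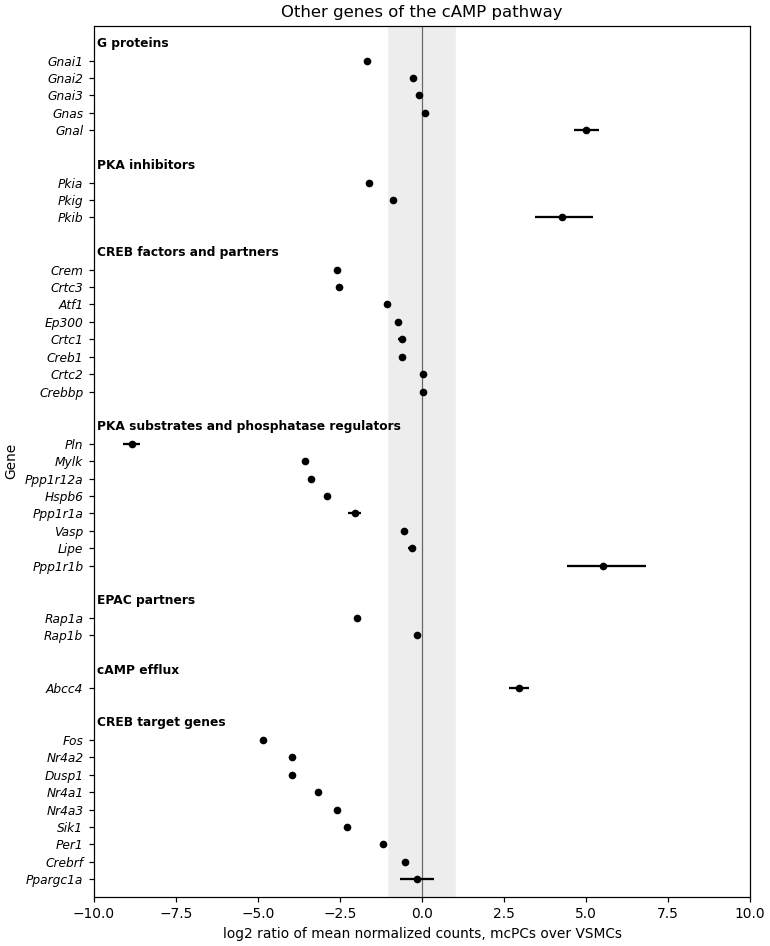
log2 ratio of the mean normalized counts, mcPCs over VSMCs, of 36 other genes of the cAMP pathway (points, with 95% counting intervals), grouped by role. The grey band marks less than 2-fold. Pln lies lowest at -8.85, 7 of the 9 genes listed as CREB targets lie left of the band, and the 4 genes to its right are Gnal, Pkib, Ppp1r1b and Abcc4.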

How the data were processed

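Libraries of polyA+ RNA from 3 VSMC and 3 mcPC samples were each sequenced in 4 runs. The authors filtered the reads with Eoulsan, quantified transcripts of the Rnor_6.0 build from Ensembl with Salmon 0.8.0, brought them to genes with tximport and normalized with DESeq2, per the labels, the submitters' processing notes and the study's methods. The deposited TPM, estimated counts (a mean per run) and effective lengths are the authors' means of each cell type. The deposited normalized counts are a signal that the authors made by dividing counts by normalization factors. The deposited fold changes, standard errors and p-values are the authors' own comparison of mcPCs with VSMCs and were not used. A count model over samples had been planned and was not run, since the table gives means.

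Estimated counts were multiplied by the 4 runs for reads per sample and by the 12 runs of a cell type for the counting interval (95%, Clopper-Pearson). Of the mean counts, 69.8% in VSMCs and 71.5% in mcPCs were whole multiples of 1 read over 12 runs, within 0.01 read. The log2 ratio of normalized counts used no pseudocount and the ratio of TPM one of 0.1. Named were the 2 most abundant members of each role in each cell type, the members past 2-fold with at least 0.8 TPM in either, the 4 members under 0.8 TPM in both by level, and listed pathway genes past 2-fold with at least 0.8 TPM in either. Other genes were named after their values were seen. The members and lists were chosen with earlier results of these data known. Other scalings, a pseudocount of 5, filters on TPM and the counting interval served as alternatives. The ratio step was tested on simulated data. Scripts ran in Python 3.11.15 with scipy 1.17.1, pandas 2.3.3, numpy 2.4.6 and, for figures, matplotlib 3.10.9.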

Additional observations from a re-analysis of the deposited data

How the results depend on the processing

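The number of members at least 2-fold higher in VSMCs, 20, lay between 20 and 27 under the alternatives other than mean TPM as it stands, which gave 38. The number at least 2-fold higher in mcPCs, 12, came to 3 on mean TPM as it stands and to 7 with the study's filter of 0.8 TPM in VSMCs, which by construction removes genes low in VSMCs. It lay between 8 and 12 otherwise. The shares of all genes under the TPM filters were not computed. The median log2 ratio over the members, -0.53, was -2.34 on TPM as it stands, -0.62 on TPM relative to the median gene, -1.10 on counts scaled to the same total, -0.54 on counts without the erythrocyte list, -0.37 without the hemoglobin genes too, -0.55 relative to the median gene and -0.74 over members with at least 0.8 TPM in either cell type. On the first 3 of these scales the median over all genes was -1.72, 0 and -0.55. The scalings without the hemoglobin genes and relative to the median of the normalized counts were chosen after the data were seen. On TPM as it stands the values of Akap13, Pde1b and Pde2a turned to -0.29, -0.67 and -0.044. Of 238 values of 34 named members under the alternatives, 231 kept their sign, which for values far from 0 these alternatives could hardly change. No sample could be left out, and no paired analysis was possible because the table gives means of each cell type only. Precision is set by 3 samples per cell type whose spread was not measured here, and for genes such as Adcy1, with 8.33 reads per VSMC sample, by depth.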
